A study of Homo sapiens with 8 samples.

Results

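The CTCF peaks examined here were called both in control HT1080 cells and in HT1080 cells exposed to the curaxin CBL0137, and were at least 1.5 times as wide in the treated cells. They were chosen by their measured widths: a peak of treated cells belonged to the group if it overlapped exactly 1 peak of control cells and its width was at least 1.5 times that of its partner. Of the 29558 peaks of treated cells, 27159 overlapped exactly 1 of the 47470 control peaks, and 1014 of these one-to-one pairs had widened. The share of widened pairs was 3.73% (95% Wilson interval 3.51% to 3.97%). Since width chose these peaks, the widths below are a description and carry no test.

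HT1080 is a human fibrosarcoma line with an activated ras oncogene. Control cells and cells kept in 3 µM CBL0137 for 6 h were each profiled by chromatin immunoprecipitation with a polyclonal anti-CTCF antibody and sequencing, and each condition had 2 ChIP and 2 input libraries from separate biological replicates (8 libraries in all). PePr, a peak caller that models replicates jointly, reduced each condition to a single peak list, so no width or fold enrichment has a value per replicate and no spread between replicates can be given. Read depth per library is not part of these lists. The paper reports it, with similar numbers of uniquely mapped reads in the ChIP libraries of both conditions and fewer in an input library of treated cells. Since each list pools its libraries, a difference in width between the lists cannot be told apart from a difference between the libraries behind them. All intervals given here cover counting error over peaks only.

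CTCF is a DNA-binding protein with a row of zinc fingers that recognises a long, GC-rich motif and halts loop-extruding cohesin, so that pairs of bound sites often mark the bases of chromatin loops and the borders of topological domains. Most of its sites lie in introns and between genes, and a smaller part lies at promoters. Curaxins such as CBL0137 insert into DNA and disturb the contacts between DNA and histones. A ChIP-seq peak is the stretch over which immunoprecipitated reads exceed the input, so its width reflects how far that excess reaches around the bound site.

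Complete sequences of treated-cell peaks are shown first for 2 of the widened peaks that went from 100 bp in control cells to 300 bp in treated cells. They show DNA in which widening was seen with and without an exact match to the core of the CTCF motif. They are the peak with the highest GC content among the 20 largest width ratios of peaks of at most 300 bp outside untranslated exons, and, among the same kind of peaks, the one with the core described below that had the highest fold enrichment in treated cells at the largest ratio, 3, which others with the core shared. Capitals mark the part that was already a peak in control cells. Both are on the plus strand of hg19, at chr3:52567901-52568200 (228 bp upstream of the start of NT5DC2) and chr22:51080801-51081100 (intergenic, 14400 bp upstream of the start of ARSA, the gene of the lysosomal arylsulfatase A).
NT5DC2 promoter: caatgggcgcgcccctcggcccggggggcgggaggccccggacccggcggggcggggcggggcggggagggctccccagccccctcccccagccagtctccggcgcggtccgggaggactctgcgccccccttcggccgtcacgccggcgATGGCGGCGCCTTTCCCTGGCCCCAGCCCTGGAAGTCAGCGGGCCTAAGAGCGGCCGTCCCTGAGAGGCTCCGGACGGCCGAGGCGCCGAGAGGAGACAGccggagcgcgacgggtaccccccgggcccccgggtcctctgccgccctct
near ARSA: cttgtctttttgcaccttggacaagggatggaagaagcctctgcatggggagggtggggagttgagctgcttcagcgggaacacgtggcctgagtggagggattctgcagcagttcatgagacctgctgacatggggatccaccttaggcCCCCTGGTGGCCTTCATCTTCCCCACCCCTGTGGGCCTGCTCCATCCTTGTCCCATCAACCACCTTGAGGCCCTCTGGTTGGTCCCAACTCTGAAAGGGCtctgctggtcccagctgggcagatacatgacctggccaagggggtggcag
The NT5DC2 peak held 38 CpG dinucleotides and lay in DNA of 77.2% GC (500 bp around the control peak). The peak near ARSA held 2 CpG in DNA of 58.4% GC. Their fold enrichments of ChIP over input were 21.8 in control and 31.3 in treated cells at NT5DC2 and 17.4 and 46.0 near ARSA.

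A second set shows the CTCF core itself at the 5 intronic or intergenic widened peaks with the core that had the highest fold enrichment in treated cells. Each line gives the core in capitals, CCANNAGNNGGC with N for any base, and 10 bases on either side, read 5′ to 3′ on the strand that carries the motif. The sites are chr1:227730399-227730430 (minus strand, 20843 bp upstream of ZNF678), chrX:151020945-151020976 (plus strand, 60030 bp upstream of MAGEA4), chr16:49498908-49498939 (plus strand, 91211 bp downstream of the start of C16orf78), chr10:120386636-120386667 (minus strand, 31491 bp upstream of PRLHR) and chr11:1853838-1853869 (minus strand, in SYT8). The SYT8 site lay in an intron, 1823 bp upstream of the nearest protein-coding start, which is also one of SYT8.
near ZNF678: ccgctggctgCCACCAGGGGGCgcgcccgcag
near MAGEA4: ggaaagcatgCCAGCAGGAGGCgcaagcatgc
near C16orf78: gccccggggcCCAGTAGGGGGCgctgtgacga
near PRLHR: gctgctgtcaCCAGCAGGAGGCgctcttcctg
SYT8 intron: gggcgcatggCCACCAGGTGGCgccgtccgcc
All 5 cores lay inside the control peak as well as inside the treated peak, so the wider peak extended around a motif that was already covered.

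**Figure D1:**
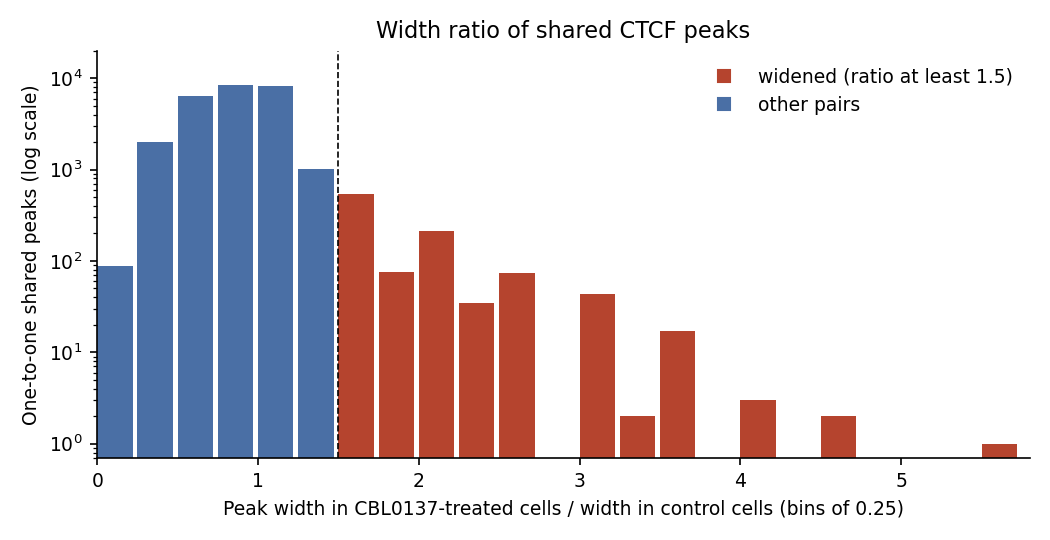
Number of one-to-one shared CTCF peaks (vertical, log scale) by the ratio of their width in treated cells to that in control cells (horizontal, bins of 0.25). The dashed line is the limit of 1.5 that chose the 1014 widened peaks, which are a thin tail to the right of a distribution with most pairs at or below 1.

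Most shared peaks went the other way. Of the 27159 pairs, 16994 (62.6%) were narrower in treated cells, 6118 (22.5%) had the same width and 4047 (14.9%) were wider by any amount. The number of pairs that had narrowed by at least the same factor was 6924 (25.5%). The median widened peak measured 150 bp in control cells and 300 bp in treated cells, with quartiles of 100 and 200 bp and of 250 and 350 bp. Among the other pairs the medians were 350 and 300 bp. The median width ratio of the widened peaks was 1.67 and the largest was 5.5. The median number of bases added was 100 and the largest was 600.

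The caller places peak ends on a grid of 50 bp, so widths take few values. Exactly at the limit stood 344 pairs, with medians of 200 bp in control and 300 bp in treated cells, of which 23.5% lay at a promoter. Just outside it, 175 pairs had a ratio from 1.4 up to the limit, the largest being 1.46, with medians of 250 and 350 bp and a promoter share of 21.1%. The narrowest shared peaks of either condition measured 100 bp, so the partner of a 100 bp control peak was either of the same width or wider. On this grid any widening of a 100 bp control peak met the limit, while wider control peaks needed a larger gain.

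Widened peaks were concentrated among narrow and weak control peaks. Of the pairs whose control peak was 100 bp wide, 358 of 461 (77.7%) had widened. The share was 31.1% (251 of 806) at 150 bp, 19.2% (267 of 1393) at 200 bp, 89 of 7098 (interval 1.02% to 1.54%) at 250 to 300 bp and 0.282% (49 of 17381) at 350 bp or more. The median fold enrichment in control cells was 21.0 for widened peaks and 35.2 for other pairs. With the pairs cut into 4 equal groups by control fold enrichment, from weakest to strongest, 10.3%, 2.36%, 1.33% and 0.973% of the pairs had widened. An FDR of at most 1e-05 in control cells was reached by 21.4% of the widened peaks (217 of 1014) and by 92.9% of the others, while in treated cells the shares were 71.1% and 75.2%. These values come from the same comparison as the widths and are given as a description.

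Fold enrichment was compared by rank, because separately called lists do not share a scale. The lists also differ in length (47470 and 29558 peaks), so each pair was given its percentile among the same 27139 pairs of chromosomes 1 to 22 and X in both conditions, where the median change over all pairs was 0.70 points. The median percentile of widened peaks was 10.8 in control cells and 43.7 in treated cells, and that of other pairs was 51.3 and 50.3. A higher percentile in treated cells was found for 833 of 1014 widened peaks (82.1%, interval 79.7% to 84.4%) and for 50.04% of the others (13072 of 26125). Narrow control peaks in general ranked higher after treatment, and at 100 bp the shares were 83.5% among widened and 66.0% among other peaks. These peaks started near the bottom of the ranking. At 100 bp the median control percentile was 4.08 among widened and 4.74 among other peaks, which left little room to fall. The direction turned for wide control peaks: of the 49 widened peaks that measured 350 bp or more in control cells, 17 (34.7%, interval 22.9% to 48.7%) ranked higher in treated cells, against 51.1% of the other pairs of that width. There the median control percentile was 78.0 among widened and 57.8 among other peaks. How far the starting rank accounts for these changes was not tested.

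The deposited lists of sites that differed between the conditions, also from the same libraries, were used by position. Over all pairs on chromosomes 1 to 22 and X, 4.29% (1163 of 27139) touched a site called higher after treatment and 30% touched a site called higher in control cells. Of the widened peaks, 461 (45.5%, interval 42.4% to 48.5%) touched a site called higher after treatment and 4 (0.394%) touched one called higher in control cells, with 1 peak counted in both. Among the other pairs the shares were 2.69% and 31.1%. The 461 peaks at sites called higher after treatment had gained a median of 150 bp, and the 550 peaks at neither kind of site had gained 100 bp. Their median percentiles among the pairs were 11.7 in control and 65.2 in treated cells in the former, and 9.998 and 29.1 in the latter.

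**Figure D2:**
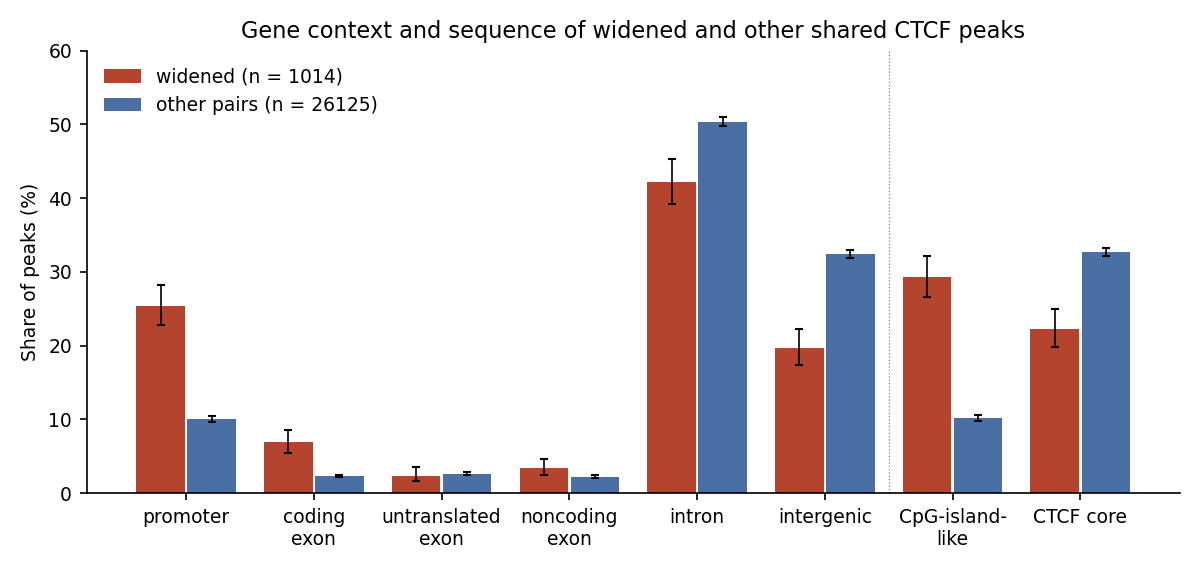
Share of peaks (vertical, %) by gene context, and, right of the dotted line, with CpG-island-like sequence or with the CTCF core, for widened peaks and other one-to-one pairs. Bars are shares and error bars are 95% Wilson intervals. Promoters, coding exons and CpG-island-like sequence took a larger share of the widened peaks, and introns, intergenic DNA and the core a smaller one.

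Position in the genome and DNA sequence were not used to choose the widened peaks. Each pair was placed by the centre of its control peak on the GENCODE annotation of hg19, and a promoter was taken as the 1 kb on either side of the start of a protein-coding transcript. All 1014 widened peaks lay on chromosomes 1 to 22 and X and were compared with the 26125 other pairs there. Promoters held 258 of the widened peaks (25.4%, interval 22.9% to 28.2%) and 10.03% of the others, a difference of 15.4 percentage points (Newcombe 95% interval 12.8 to 18.2). Coding exons outside promoters held 6.90% of the widened peaks and 2.32% of the others. By control width, the interval of this difference lay above 0 at 200 bp (7.12% against 2.93%) and at 250 to 300 bp (11.2% against 2.68%). It included 0 at 100 bp, at 150 bp (5.18% against 4.86%) and at 350 bp or more. Introns held 42.2% against 50.3%, a difference that depended on control width (49.7% against 43.7% at 100 bp, with an interval that included 0, and 31.5% against 52.0% at 250 to 300 bp), and intergenic DNA held 19.7% against 32.4%. Untranslated exons held 2.37% and 2.63%, a difference of -0.27 points whose interval ran from -1.06 to 0.88, so none was detectable there. Read the other way, 10.4% of all shared peaks in coding exons and 8.96% of those at promoters had widened, against 3.15% in introns and 2.31% between genes.

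The promoter excess was found within each width of control peak except the narrowest. At 100 bp, 21.2% of widened and 16.5% of other peaks lay at a promoter, and the interval of the difference ran from -4.50 to 12.2 points. The shares were 24.3% and 14.6% at 150 bp, 27.3% and 12.5% at 200 bp, 31.5% and 8.57% at 250 to 300 bp, and 40.8% (20 of 49) and 10.3% at 350 bp or more. In these 4 classes the interval of the difference lay above 0. The promoter share of the widened peaks thus rose with control width, while that of the other pairs did not. The limit asks for a larger gain at wider control peaks, so control width and gain were not separated here. Among widened peaks with at least 150 bp added, 30.8% lay at a promoter.

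At promoters the widened peaks were placed evenly around the start. Of the 258, 129 (50%, interval 43.9% to 56.1%) had their control centre upstream of the start, against 66.1% of the 2620 other promoter pairs, a difference of -16.1 points (interval -22.4 to -9.78). The median distance to the start was 198.5 bp among widened and 227.5 bp among other promoter peaks. The added bases showed no preferred side: 81 of the 258 had gained more on the upstream side, 79 more on the downstream side and 98 the same on both. The treated centre lay nearer to the start than the control centre at 84 promoters and farther at 76. The 258 peaks lay at the promoters of 257 genes.

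The widened peaks lay in GC-rich DNA. Over 500 bp around the control centre the median was 58.2% for widened peaks (quartiles 51.6% and 66.6%) and 47.8% for the other pairs (41.0% and 55.8%). CpG-island-like sequence, defined as at least 55% GC with a CpG observed-to-expected ratio of at least 0.6, was present at 29.3% of widened peaks and 10.2% of others, a difference of 19.1 points (16.4 to 22.01). With the pairs cut into 10 equal groups by GC content, the share that had widened rose at each step, from 0.295% (8 of 2713) in the poorest to 12.3% (335 of 2714) in the richest. Over the same groups the share that had narrowed by the same factor fell from 40.7% to 9.95%. The 2 measures come from the same pairs, so they are not separate evidence.

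**Figure D3:**
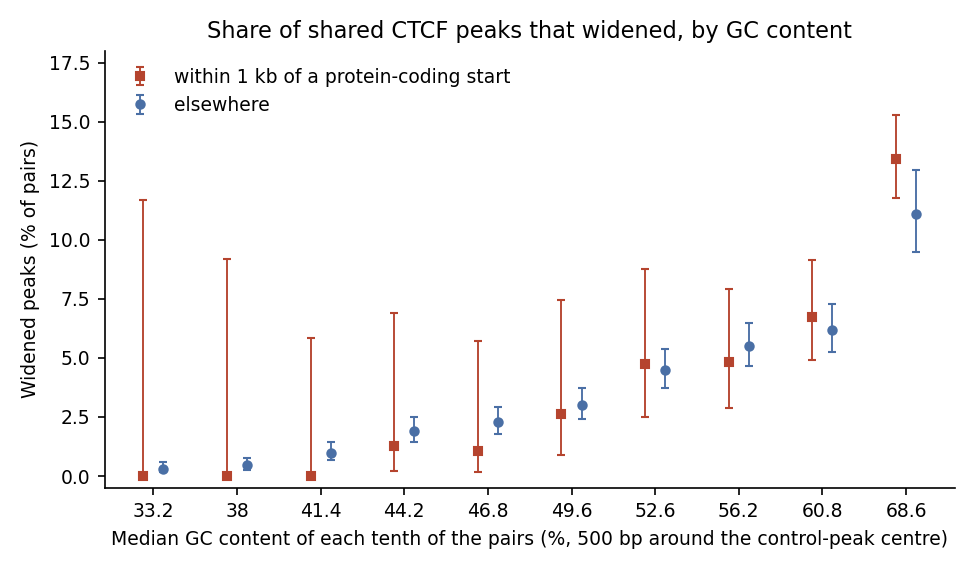
Share of one-to-one shared CTCF peaks that had widened (vertical, %) in 10 equal groups by GC content (horizontal, median of each group), for peaks within 1 kb of a protein-coding start and for peaks elsewhere. Error bars are 95% Wilson intervals. Both series climb with GC content and their intervals overlap in every group.

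Compared at like GC content, the shares of promoter and other pairs that had widened were close, with overlapping intervals. In the richest group 13.4% of promoter pairs (194 of 1445, interval 11.8% to 15.3%) and 11.1% of the rest (141 of 1269, 9.50% to 13.0%) had widened. In the next group the shares were 6.72% and 6.20%, and in the one below it 4.81% and 5.49%. In the 3 poorest groups none of 29, 38 and 62 promoter pairs had widened, which allows shares of up to 11.7%, 9.18% and 5.83% (Wilson upper limits). Of the rest, 0.298%, 0.448% and 0.980% had widened there. CpG-island-like pairs away from promoters had widened in 8.31% of cases (94 of 1131), promoter pairs without such sequence in 5.22% (55 of 1053), pairs with both in 11.1% and pairs with neither in 2.86%.

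**Figure D4:**
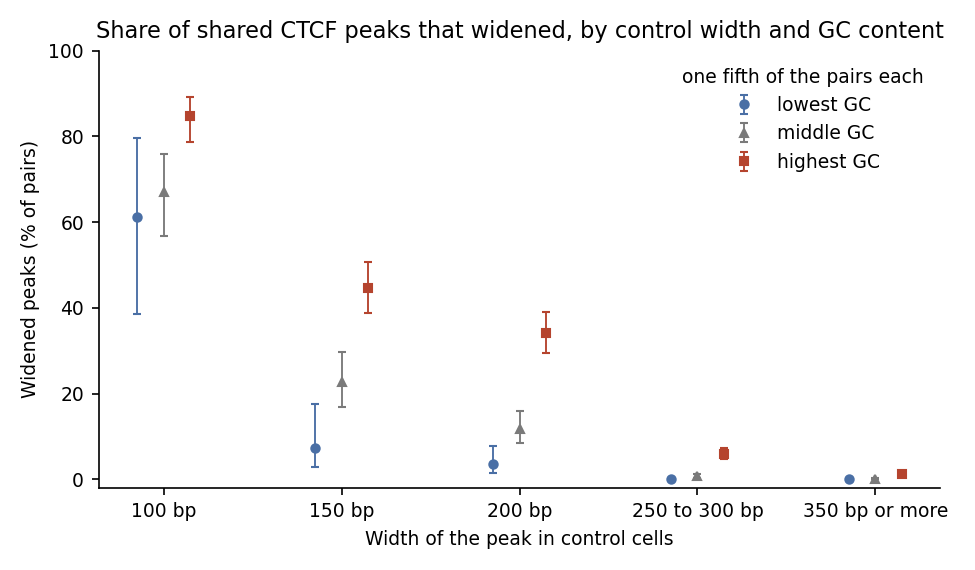
Share of one-to-one shared CTCF peaks that had widened (vertical, %) by control width (horizontal) for the pairs of lowest, middle and highest GC content, each holding 2 of the 10 GC groups. Error bars are 95% Wilson intervals. Within each width the highest-GC pairs lie above the lowest-GC pairs.

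The relation to GC content was present within each control width as well. At 100 bp, 61.1% of the pairs of lowest GC (11 of 18) and 84.7% of those of highest GC (149 of 176) had widened, with intervals that just overlapped. At 150 bp the shares were 7.41% and 44.7%, and at 200 bp 3.47% and 34.1%. At 250 to 300 bp, 0 of 1669 low-GC pairs had widened, which allows a share of up to 0.230% (Wilson upper limit), against 5.84% (67 of 1147) of high-GC pairs. At 350 bp or more the counts were 0 of 3542 and 40 of 3454 (1.16%). The same held for peak strength: in the weakest of the 4 groups by control fold enrichment, 28.1% of the pairs in the 2 richest GC groups and 3.03% of those in the 5 poorest had widened, and in the strongest the shares were 2.16% and 0.222%.

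The CTCF core was less common under the widened peaks, and this followed their control width. The core was searched on both strands in the 400 bp around the control centre, and 226 of 1014 widened peaks (22.3%, interval 19.8% to 24.95%) and 32.7% of the other pairs held it. In windows shifted by 10 kb the shares were 1.78% and 1.43%. With at most 1 mismatch allowed the shares at the peaks were 74.9% and 82.9%. Within a control width the difference was not detectable: 21.2% against 20.4% at 100 bp, 19.9% against 23.2% at 150 bp, 22.1% against 20.2% at 200 bp, 27.0% against 28.2% at 250 to 300 bp and 34.7% against 35.8% at 350 bp or more. The intervals of these 5 differences all included 0.

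Most widened peaks had grown outward on both sides of the control peak. Both ends had moved outward at 766 of 1014 (75.5%), and 1 end at 248 (24.5%). The control peak lay wholly inside the treated peak at 988 (97.4%). Among the 3032 other pairs that were wider in treated cells by a smaller factor, both ends had moved at 16.1%. On the grid of 50 bp, a gain of 50 bp can fall at only 1 end. Where exactly 1 core was found (217 widened peaks), it lay inside the control peak at 200 (92.2%) and a median of 16 bp from the control centre and 15 bp from the treated centre. Among the 8332 other pairs with exactly 1 core, it lay inside the control peak at 99.3%, with medians of 16 and 13 bp. Along the motif, 60 widened peaks had gained more at its 5′ side, 59 more at its 3′ side and 98 equally. Of the other pairs, 2802 had gained more or lost less at the 5′ side, 1996 at the 3′ side, and 3534 had changed equally. The groups were not compared here at like control width.

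**Figure D5:**
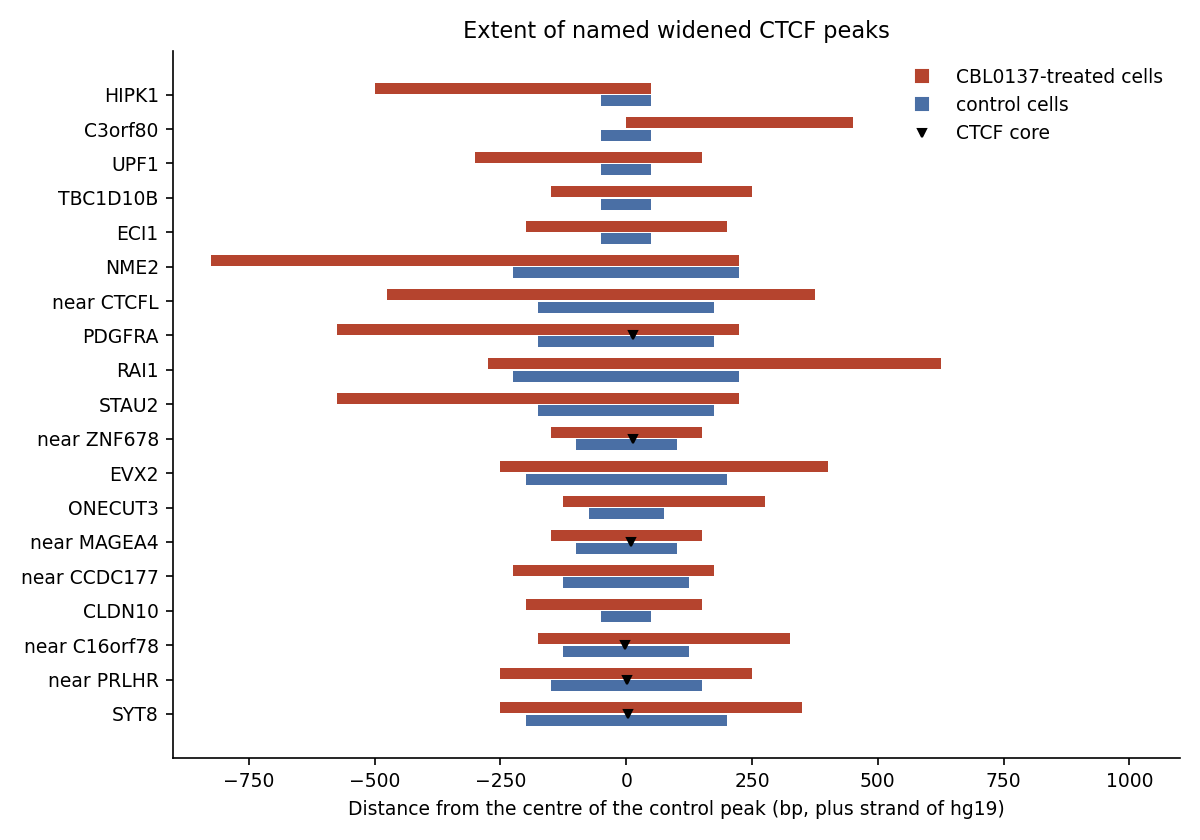
Extent of the named widened peaks in treated cells (upper bar of each pair) and in control cells (lower bar), in bp from the centre of the control peak along the plus strand. Triangles mark the CTCF core. The top 5 are among the largest width ratios and the next 5 among the largest gains, and at 6 of these 10 (HIPK1, C3orf80, NME2, PDGFRA, RAI1 and STAU2) at most 50 bp of the gain lay on the lesser side.

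The width ratio reached 4 or more at 6 peaks, all of which measured 100 bp in control cells, and 4 of the 6 lay at a promoter. The largest was at HIPK1, the gene of a nuclear protein kinase, where the peak at chr1:114472251-114472800 measured 550 bp against 100 bp in control cells, a ratio of 5.5, with all 450 bp added on the left. Its fold enrichment was low in both lists, 7.72 in control and 13.6 in treated cells. At C3orf80 (chr3:159943501-159943950) the width went from 100 to 450 bp with fold enrichments of 9.19 and 34.1. At UPF1, which encodes an RNA helicase of nonsense-mediated mRNA decay, the peak at chr19:18942851-18943300 also reached 450 bp, with fold enrichments of 10.1 and 22.6. TBC1D10B, a gene for a Rab GTPase-activating protein, had a 400 bp peak at chr16:30381301-30381700 in DNA of 81.8% GC, with listed fold enrichments of 28.2 and 30.1. By rank the TBC1D10B peak rose, with percentiles among the pairs of 28.5 in control and 52.5 in treated cells. The other 2 of the 6 lay in a coding exon of ECI1, a gene of mitochondrial fatty acid oxidation, at chr16:2294351-2294750, and in an intron of C6orf132, at chr6:42071901-42072300, both going from 100 to 400 bp. The C6orf132 peak is named because it ties with TBC1D10B and ECI1, which was seen afterwards. The next promoter ratio, 3.5, was shared by 5 peaks, of which the one with the highest fold enrichment in treated cells lay at CLDN10, a claudin gene of tight junctions, at chr13:96204701-96205050.

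At least 450 bp were gained by 6 peaks, 5 of which already measured 350 or 450 bp in control cells, the exception being HIPK1. The largest gain, 600 bp, was at chr17:49243751-49244800, 651 bp inside NME2, a nucleoside diphosphate kinase gene, where the peak went from 450 to 1050 bp with fold enrichments of 39.0 in control and 26.0 in treated cells. A gain of 500 bp was found at chr20:56101301-56102150, 1068 bp upstream of CTCFL, the testis paralogue of CTCF, with fold enrichments of 36.0 and 44.8. Like HIPK1, another 3 gained 450 bp each. They lay in an intron of PDGFRA, the platelet-derived growth factor receptor gene, at chr4:55099051-55099850, at the promoter of RAI1, a transcriptional regulator, at chr17:17584301-17585200, and at the promoter of STAU2, which encodes a double-stranded RNA-binding protein, at chr8:74658801-74659600. Their listed fold enrichments were 48.3 in control and 42.0 in treated cells at PDGFRA, 49.4 and 41.8 at RAI1, and 55.5 and 37.2 at STAU2. The listed value was the lower one in treated cells at 4 of the 6. The same was found at 64.8% of all pairs and at 34.7% of the widened peaks. Among widened peaks of 350 bp or more in control cells the share was 71.4%. By percentile among the pairs these 4 also fell. The changes were 62.5 to 42.3 at NME2, 83.6 to 76.6 at PDGFRA, 85.2 to 76.4 at RAI1 and 92.2 to 68.1 at STAU2. The percentiles at HIPK1 and near CTCFL rose.

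The 5 highest fold enrichments among widened peaks in treated cells were found away from promoters, as most widened peaks were (25.4% of all 1014 lay at a promoter). The first, at chr1:227730251-227730550 upstream of ZNF678, had a fold enrichment of 30.8 in control and 77.8 in treated cells and went from 200 to 300 bp. The second, at chr2:176944501-176945150, lay in an untranslated exon of EVX2, the homeobox gene at the end of the HOXD cluster, and went from 400 to 650 bp with fold enrichments of 56.6 and 75.4. The third, in an intron of the homeobox gene ONECUT3 at chr19:1768301-1768700, had percentiles among the pairs of 1.496 in control and 98.9 in treated cells, with fold enrichments of 12.6 and 73.5. The remaining 2 lay 60030 bp upstream of MAGEA4, a cancer-testis antigen gene (46.6 and 72.6), and 26612 bp from the start of CCDC177 (42.2 and 70.9). Among the other peaks whose cores are printed above, the one near C16orf78 went from 250 to 500 bp with fold enrichments of 45.8 and 66.6. The one near PRLHR, the receptor gene of prolactin-releasing hormone, went from 300 to 500 bp with fold enrichments of 53.3 and 63.3. The peak in SYT8, a synaptotagmin gene, went from 400 to 600 bp with listed fold enrichments of 58.8 and 60.9. Its percentiles among the pairs were 94.5 in control and 95.6 in treated cells.

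The chromosomes differed in the share of pairs that had widened. Chromosome 19, which is rich in genes and in GC, stood highest with 94 of 1253 (7.50%, interval 6.17% to 9.09%), followed by chromosome 22 with 6.17% and chromosome 21 with 5.52%, and these 3 intervals overlapped. Chromosome 18 was lowest with 12 of 514 (2.33%, 1.34% to 4.04%). When each of the 10 GC groups was compared, the intervals of chromosome 19 and of the other chromosomes were apart only in the richest, where 42 of 226 pairs (18.6%, 14.1% to 24.2%) had widened against 11.8% (10.6% to 13.1%) on the other chromosomes. In the 2 groups below it the shares were 5.98% against 6.34% and 5.61% against 5.40%, and the 5 poorest groups held 2 widened peaks of chromosome 19 in all.

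Widened peaks lay near one another somewhat more often than other shared peaks lay near a widened one, and no excess was detectable within any of the 10 GC groups. Another widened peak lay within 100 kb of 188 of the 1014 (18.5%, interval 16.3% to 21.0%), while 13.1% of the other pairs had a widened peak that near, a difference of 5.48 points (3.17 to 8.02). In the richest GC group the shares were 25.1% and 23.4%, and in the next 24.6% and 23.4%. In the group below these the widened peaks had the lower share, 12.2% against 20.3% (difference -8.01 points, interval -12.7 to -1.55), and in the other 9 groups the interval of the difference included 0. Within 20 kb they were 3.55% and 3.38%, and the interval of that difference included 0. Counting along the chromosome, 910 widened peaks had no widened neighbour among the adjacent pairs, and 52 times 2 adjacent pairs had both widened, with no longer run. Another control peak lay within 10 kb of 47.9% of widened and 43.4% of other peaks, a difference of 4.48 points (1.36 to 7.62). By control width its interval lay above 0 only at 250 to 300 bp (55.1% against 38.9%), and it was not compared at like GC content. Of the control peaks within 100 kb, 31.0% around widened peaks and 35.6% around the others had no treated peak.

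No window of 100 kb held more than 3 widened peaks, and the 3 such windows that contained the highest fold enrichments in treated cells are described. The window at chr7:6595851-6677650 held widened peaks upstream of GRID2IP, at the promoter of INTS15, a subunit gene of the Integrator complex, and at the promoter of the zinc-finger gene ZNF316, among 5 shared peaks. The INTS15 peak had one of the highest fold enrichments of the control list, 88.3, and 64.6 in treated cells. The window at chr16:587751-661500 held 2 in CAPN15, a calpain gene, and 1 in RAB40C, a small GTPase gene, among 6. The window at chr2:239048151-239147800 held 1 in KLHL30, 1 in the noncoding KLHL30-AS1 and 1 at the promoter of HES6, a bHLH transcription factor gene, among 6. Of these 9 peaks, the one in RAB40C had the largest drop in percentile among the pairs, from 92.8 to 66.3.

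The gene families examined held few widened peaks each. Genes named ZNF, which encode C2H2 zinc-finger proteins, held 15 of 211 shared peaks (7.11%, interval 4.36% to 11.4%), the largest ratio being 3.33 at ZNF346 (chr5:176449651-176450150). The clustered protocadherins, cell-adhesion genes whose promoter choice depends on CTCF, held 4 of 37 (10.8%, 4.29% to 24.7%), including a peak in the alpha cluster at chr5:140255401-140255700 that went from 100 to 300 bp. Immunoglobulin heavy chain variable genes held 3 of 25 (12%, 4.17% to 30.0%), olfactory receptor genes 2 of 17, cytosolic ribosomal protein genes 2 of 46 (RPL7 and RPSA, both at promoters), mitochondrial ribosomal protein genes 1 of 51 (MRPS22) and keratins 1 of 18 (KRT77). Collagen genes held 3 of 88, at COL6A2, COL18A1 and COL20A1, with ratios of 2, 2 and 1.5. Among the genes of CTCF, cohesin and its loader 1 of 21 had widened, inside the CTCF gene at chr16:67647801-67648050, where the width went from 150 to 250 bp with fold enrichments of 24.2 and 19.4. None of 18 shared peaks in the HOX clusters, 7 at histone genes and 33 at proteasome subunit genes had widened, which allows shares of up to 17.6%, 35.4% and 10.4% (Wilson upper limits). The genes of FACT, the histone chaperone that curaxins trap on chromatin, held no shared peak. Beside the 3.73% of all pairs, the intervals of the ZNF, protocadherin and immunoglobulin lists began above that share, those of the other lists with shared peaks included it, and no allowance was made for the number of lists. No list was matched to other pairs by GC content or chromosome. The ZNF pairs had a median GC of 53%, and some lay on chromosome 19, where 7.50% of all pairs had widened.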

How the data were processed

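CTCF ChIP and input libraries of control HT1080 cells and of cells treated with CBL0137 (3 µM, 6 h) were grouped by their labels. The authors used Bowtie2 2.2.3 to align reads to hg19 and SAMtools 1.5 to discard duplicates, dropped alignments that were not unique, and called peaks with PePr in windows of 100 bp on both replicates of a condition together. The deposited lists give for each peak a fold enrichment (a ratio of ChIP over input computed by the authors), a p-value and an FDR. Their headerless columns were read in broadPeak order. The 2 lists of the direct comparison of conditions hold the authors' fold changes and p-values, and only the positions of their sites were used.

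Peaks were paired by an overlap of at least 1 bp. Gene context came from GENCODE v44 lifted to GRCh37, with basic transcripts. Introns were those of protein-coding and long noncoding RNA genes, so the 3 widened peaks of the immunoglobulin list, outside such genes, counted as intergenic. Within genes, coding exons took precedence over untranslated exons, noncoding exons and introns. Sequence was read with pysam 0.24.0, and the overlap and motif routines were tested on simulated data. Shares carry Wilson and differences Newcombe 95% intervals computed with Python 3.11.15 and pandas 2.3.3, with no test of significance, since peaks are not replicates of a condition. The members, gene lists and rules for named peaks were chosen with earlier results of these data known. Named peaks were, with ties taken by fold enrichment in treated cells, the 5 with the largest ratio, the most bases added or the highest fold enrichment in treated cells, the 5 promoter peaks of largest ratio, the 5 intronic or intergenic peaks with the core of highest fold enrichment, the 3 densest windows, and up to 4 examples per gene list. Sequences on chromosome 8 or over untranslated exons were not printed. Alternatives in the limit on width, the pairing, peak significance, windows and annotation were computed. A further sequence is not reported here.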

Additional observations from a re-analysis of the deposited data

How the results depend on the processing

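No paired analysis was possible because each deposited list pools the replicates of a condition, and for the same reason no replicate could be left out. Widths, ranks and differential sites come from the same libraries, so their values are not independent of the choice of peaks. Of 110 recomputed values 63 stayed within the interval of the reported value (for the number of peaks, within 1.5 times), and the promoter share was higher among widened than among other peaks under every alternative to the choice of peaks, by 12.4 to 24.97 points. The cause of the shifts below was not tested.

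Clustered peaks here are those with another widened peak within 100 kb. Their share depends on how many peaks count as widened. The matching share of other pairs was not recomputed for these choices of peaks, so the clustered shares do not compare clustering between settings. Only ratios over 1.5 left 670 widened peaks (2.47% of pairs), a median GC of 59.7%, 13.1% clustered and 52.5% at sites higher after treatment. The lower limit tried on the ratio gave 2028 (7.47%), with 22.1% at promoters, 22.7% intergenic, 27.4% with the core, GC of 57.0%, 29.3% clustered and 36.2% at such sites. A ratio of at least 2 gave 391 (1.44%), with 7.67% clustered and 52.4% at such sites. Requiring 150 added bases gave 452 (1.66%), with 30.8% at promoters, GC of 62.3%, 12.4% clustered and 72.4% at such sites. An overlap of at least 50% of the control peak gave 4.05% of pairs widened. An FDR of at most 1e-05 in both lists gave 217 (1.12%), with 23.96% intergenic, 29.5% with the core, GC of 59.8%, 5.53% clustered and 58.5% at such sites. Control peaks of at least 250 bp gave 141 (0.576%), with 34.8% at promoters, 29.1% with the core, GC of 65.2%, 7.09% clustered and 67.4% at such sites. Promoter windows of 500 bp and 2 kb and the starts of all genes gave 20.3%, 29.8% and 31.8% for widened peaks and 7.42%, 13.2% and 14.9% for the others. With 1 mismatch the core was at 74.9%, over 200 bp the median GC was 61.0%, and 3.55% had a widened peak within 20 kb. Leaving out chromosome 19, chosen after seeing the data, moved none of the 9 values.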
